A study of Mus musculus with 4 samples.

Results

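The genes described here encode the proteins that store calcium in the sarcoplasmic reticulum of striated muscle and release it at each contraction. They were listed by name for their role, as 10 genes: Ryr1, Ryr3, Casq1, Casq2, Hrc, Pln, Sln, Trdn, Jph1 and Jph2. The platform annotation assigned at least 1 probe set to 6 of these 10 genes, with 7 probe sets in all (2 for Ryr3), of 12422 probe sets tested and 8251 named genes. Pln, Trdn, Jph1 and Jph2 had no assigned probe set and are not analysed here, so the junction scaffold was not measured and the pump inhibitors were represented by Sln alone. None of the 7 probe sets was shared with another gene in the annotation.

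The study compared muscle of male mice homozygous for a loss of corticotropin-releasing factor receptor 2 (Crhr2-/-, KO) with that of wild-type littermates (Crhr2+/+, WT). All mice were 6.5 months old, of C57BL/6x129 background and untreated, and gastrocnemius was sampled with soleus, so a fast muscle and a slow one were mixed in each sample. Each genotype was represented by 4 mice, whose RNA was joined to give 2 pools of 2 mice, and each pool was hybridised to 1 Affymetrix U74Av2 array, on which a set of short probes reads each transcript. Values are the deposited signal intensities in arbitrary units. The spread between arrays is thus a spread between pools, and the labels name no restriction of the loss to muscle.

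A nerve impulse reaches the interior of a muscle fibre along the transverse tubules, where the voltage sensor Cacna1s faces the ryanodine receptors of the sarcoplasmic reticulum. Ryr1 is the main release channel of skeletal muscle, and Ryr3 is a minor isoform of adult fibres. Calcium inside the store is bound by calsequestrin and by the histidine-rich protein Hrc. Casq1 is the calsequestrin form of skeletal muscle, and Casq2 is the form of heart, also present in slow fibres. The pumps Atp2a1 (fast fibres) and Atp2a2 (slow fibres and heart) return calcium to the store, and the small membrane peptides Pln and Sln inhibit them. Triadin (Trdn) and the junctophilins (Jph1 and Jph2) hold the release site together.

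Casq1 and Casq2 encode forms of the same store protein, so the 250 bases before each RefSeq start site are shown for comparison. RefSeq (GRCm38.p6) promoters were matched for 4 of the 6 measured genes. Casq1 lies at chr1:172219896-172220145 on the minus strand and Casq2 at chr3:102086165-102086414 on the plus strand, both written in the direction of transcription. Capitals mark matches to the E-box CANNTG, the recognition sequence of myogenic regulators, and to the MEF2 motif, both searched on both strands.
Casq1: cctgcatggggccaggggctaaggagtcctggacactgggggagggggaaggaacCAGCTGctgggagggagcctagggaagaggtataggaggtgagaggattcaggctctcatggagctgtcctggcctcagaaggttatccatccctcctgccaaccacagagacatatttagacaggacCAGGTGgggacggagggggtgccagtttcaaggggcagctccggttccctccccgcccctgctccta
Casq2: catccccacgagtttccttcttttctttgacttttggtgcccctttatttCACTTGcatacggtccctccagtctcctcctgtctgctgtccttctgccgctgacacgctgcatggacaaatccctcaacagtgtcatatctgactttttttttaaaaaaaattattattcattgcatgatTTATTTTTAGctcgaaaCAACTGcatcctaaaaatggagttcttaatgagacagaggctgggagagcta
Each window held 2 E-boxes, the nearer one beginning 67 bases before the start in Casq1 and 52 bases before it in Casq2. The 10-letter MEF2 motif matched once in Casq2, beginning 69 bases before the start and not overlapping the E-box, and had no match in this window of Casq1. An E-box was present in 66.2% and the MEF2 motif in 2.92% of all 32851 promoter windows of that length. The windows of the other measured genes with a match in the table held 1 E-box in Hrc and none in Ryr1. These matches describe letters and were not tested against the signals.

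The signal of the main release channel was nearly the same on all arrays. Ryr1 (probe set 100003_at, Entrez gene 20190) read 8338 and 8605 on the WT arrays and 8431 and 8606 on the KO arrays, and the genotypes overlapped. The means were 8471 ± 189 in WT and 8518 ± 124 in KO (SD, n = 2 pools in each). On the log2(intensity + 14) scale used for all differences, its log2 fold change (KO minus WT) was 0.01 ± 0.11 (standard error), with a 95% interval that, put back on the signal scale, ran from 0.839 to 1.21 times the WT signal (limma adjusted p = 0.994). The range of Ryr1 over the 4 arrays was 0.05 on that scale, and 0.209% of all probe sets had a smaller one. Its small difference turned to -0.0027 when each array was centred on its median.

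Ryr3 (Entrez gene 20192) was read by 2 probe sets, both dim, and they did not give the same picture. The brighter one, 101830_at, read 56.7 and 74.0 on the WT arrays and 58.0 and 90.3 on the KO arrays, so the genotypes overlapped and the pools of each genotype stood far apart. Its log2 fold change was 0.14 ± 0.34, with a 95% interval of 0.538 to 2.15 times the WT signal (limma adjusted p = 0.967). The dimmer one, 97126_at, read 24.5 and 26.4 on the WT arrays and 40.0 and 56.1 on the KO arrays. Here both KO arrays lay above both WT arrays, with means of 25.5 ± 1.38 in WT and 48.0 ± 11.4 in KO (SD, n = 2).

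The log2 fold change of that dimmer Ryr3 probe set, 0.64 ± 0.35, was the largest among the members and did not pass the test (limma adjusted p = 0.908, unadjusted p = 0.117). Its 95% interval ran from 0.785 to 3.83 times the WT signal. With a variance prior that ignored intensity its unadjusted p = 0.0331 and its standard error was 0.21, and it still did not pass (limma adjusted p = 0.775). A smaller difference was found in 91.0% of all probe sets tested, and 63.6% of them were brighter. Under the alternatives tried its log2 fold change lay between 0.35 and 0.83. Whether both probe sets read the same Ryr3 transcripts was not examined.

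**Figure D1:**
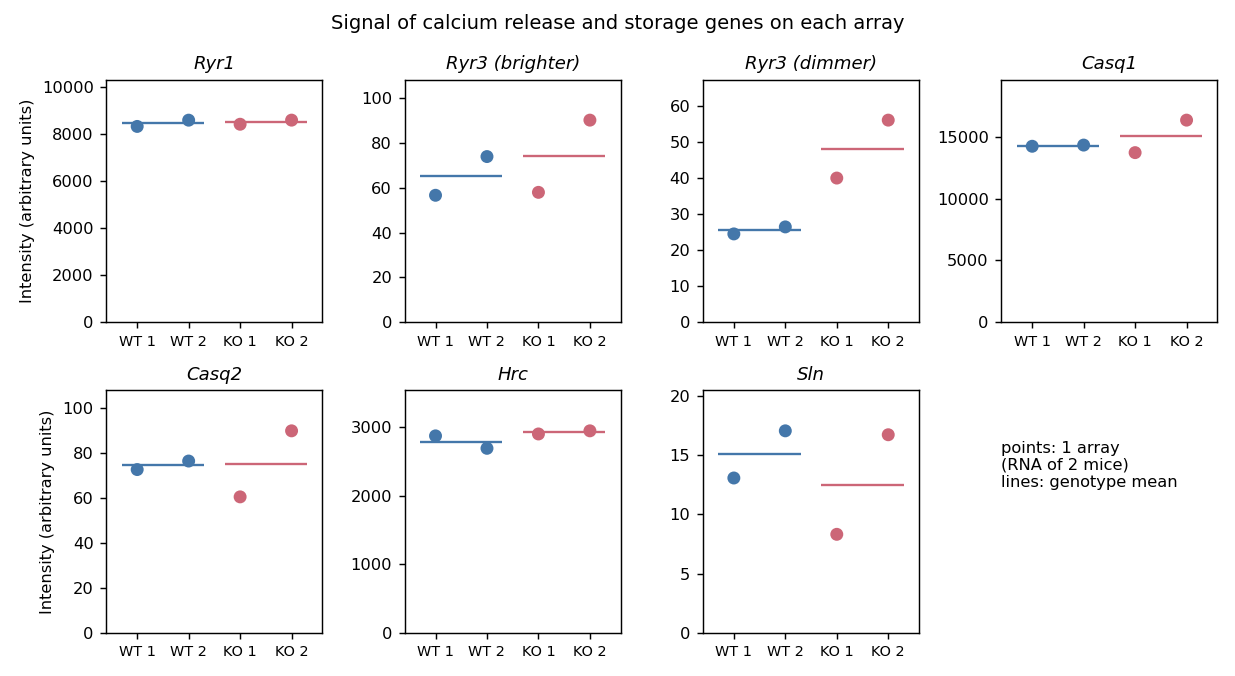
Signal intensity (arbitrary units, axes from 0) of the 7 measured probe sets on each of the 4 arrays, with WT pools in blue, KO pools in red, 1 point per array and a line at each genotype mean. The arrays lie close together for Ryr1, Casq1 and Hrc and far apart within a genotype for most of the dim probe sets; the dimmer Ryr3 probe set reads 24.5 and 26.4 on the WT arrays and 40.0 and 56.1 on the KO arrays.

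Of the store proteins, Casq1 was the brightest member. Casq1 (102426_at, Entrez gene 12372), the skeletal muscle calsequestrin, read 14234 and 14330 on the WT arrays and 13719 and 16349 on the KO arrays. The KO arrays enclosed both WT arrays, so the genotypes overlapped. Its log2 fold change was 0.07 ± 0.14 with a 95% interval of 0.832 to 1.32 times the WT signal (limma adjusted p = 0.960). The KO mean of 15034 ± 1860.1 had a wide spread beside the WT mean of 14282 ± 67.7 (SD, n = 2). Without KO replicate 2, the array of 16349, the log2 fold change was -0.06, and without KO replicate 1 it was 0.19.

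Hrc (92371_at, Entrez gene 15464), which binds calcium in the lumen and contacts triadin, read 2875 and 2694 on the WT arrays and 2903 and 2949 on the KO arrays. Both KO arrays lay above both WT arrays, but the gap between the genotypes, from 2875 to 2903, was smaller than the difference between the WT arrays. The log2 fold change was 0.07 ± 0.10, with a 95% interval of 0.891 to 1.24 times the WT signal (limma adjusted p = 0.937). The means were 2784 ± 128 in WT and 2926 ± 32.3 in KO (SD, n = 2).

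Casq2 (93053_at, Entrez gene 12373), the calsequestrin of heart and slow fibres, read 72.5 and 76.3 on the WT arrays and 60.4 and 89.7 on the KO arrays. The lowest and the highest array were both KO, and the genotype means were 74.4 ± 2.67 and 75.1 ± 20.7 (SD, n = 2). The log2 fold change was -0.01 ± 0.31, with a 95% interval of 0.510 to 1.81 times the WT signal (limma adjusted p = 0.999). Leaving out KO replicate 1 gave 0.23, and leaving out KO replicate 2 gave -0.25.

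Sln (95048_at, Entrez gene 66402), the sarcolipin peptide that inhibits the calcium pump, was the dimmest member. It read 13.1 and 17.1 on the WT arrays and 8.32 and 16.7 on the KO arrays, and 17.1% of all probe sets had a lower mean. The genotypes overlapped, and the log2 fold change was -0.15 ± 0.29 (limma adjusted p = 0.960), with a 95% interval of -0.86 to 0.56, which is 0.136 to 1.92 times the WT signal. All 4 signals were near the pseudocount of 14, which understates changes of such dim probe sets, and no detection calls were used here. Without KO replicate 1, the array of 8.32, the log2 fold change was 0.08.

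Across the members, 0 of 7 probe sets passed the test. Over all probe sets the share that passed at an adjusted p under 0.05 was 0% (limma), and 674 probe sets, or 5.43%, had an unadjusted p under 0.05, none of them a member; without the intensity trend the dimmer Ryr3 probe set was among 746 such probe sets. The 2 probe sets whose genotypes did not overlap, those of Hrc and the dimmer Ryr3, were both higher in KO, where 34.6% of all probe sets did not overlap in either direction (17% with KO higher and 17.6% with KO lower). The fitted fold change was above 0 for 5 of 7 and below 0 for 2, against 50% above 0 among all probe sets, and the median log2 fold change was 0.07 for the members and 0.0001 for all. With median centring of each array 4 were above 0 and 3 below. The counts followed single arrays: from 2 to 7 were above 0 with 1 array left out, the lowest count without KO replicate 2 and the highest without KO replicate 1, and 3 were above 0 without WT replicate 1. With 2 arrays against 2, an exact two-sided permutation test of a single probe set cannot give a p below 0.333.

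**Figure D2:**
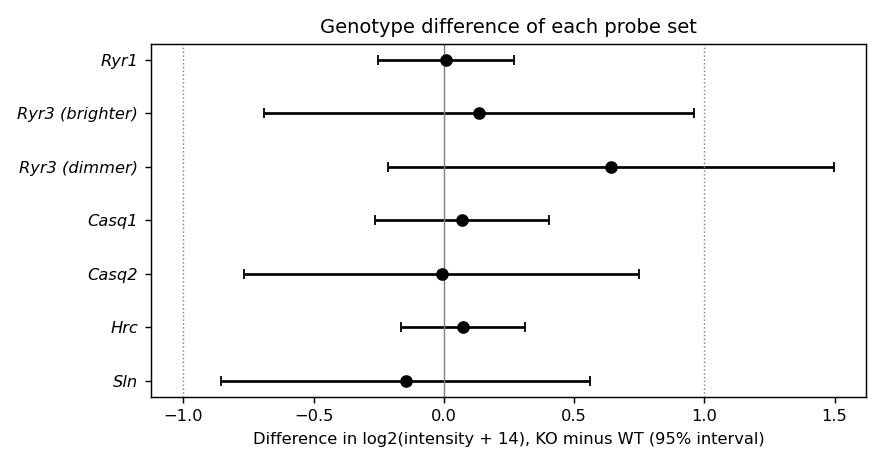
Log2 fold change (KO minus WT) of each of the 7 probe sets, as points with 95% intervals from limma; dotted lines mark -1 and 1 on the log2(intensity + 14) scale, which for dim probe sets is more than a 2-fold difference in signal. All intervals include 0, and those of Ryr1, Casq1 and Hrc are the narrowest.

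The intervals were narrower for the bright members than for the dim ones. The 3 bright probe sets, of Ryr1, Casq1 and Hrc, each stood above at least 98.0% of all probe sets and had standard errors of 0.10 to 0.14 on the log2 scale. The 4 dim ones had standard errors of 0.29 to 0.35. This contrast owes part of its size to the intensity trend of the fit: without it the standard errors were 0.17 to 0.19 for the bright and 0.21 to 0.27 for the dim probe sets. A 2-fold difference in signal lay outside the 95% interval for 4 of the 7 probe sets, those of Ryr1, Casq1, Hrc and, narrowly, Casq2, and inside it for Sln and both probe sets of Ryr3. A p above the threshold does not show that the genotypes have the same level.

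**Figure D3:**
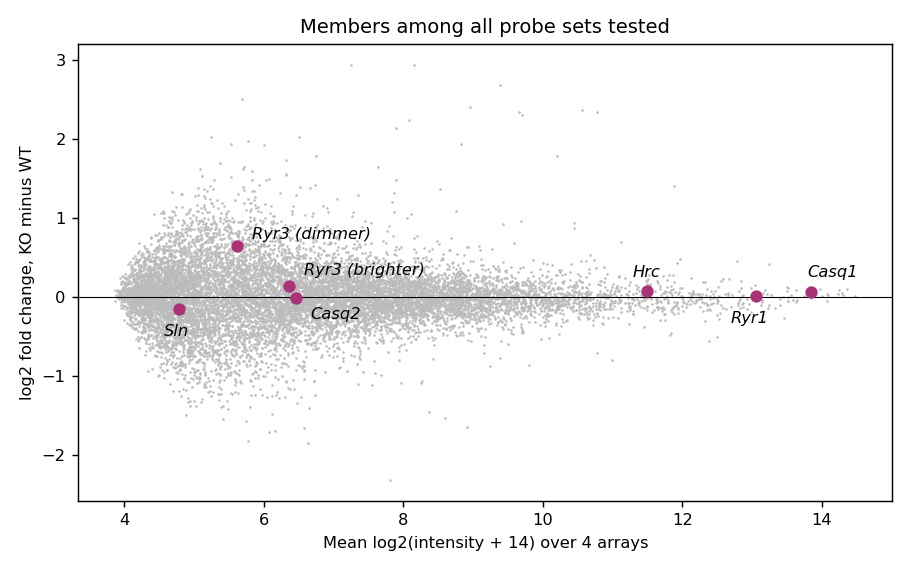
Log2 fold change (KO minus WT) against mean log2(intensity + 14) over the 4 arrays for all 12422 probe sets in grey and the 7 members in purple. Ryr1, Casq1 and Hrc lie at the bright end near 0, and the dimmer Ryr3 probe set, at 0.64, lies inside the wide scatter of dim probe sets.

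The members also varied between pools of 1 genotype. KO replicate 2 was the brightest array for 6 of the 7 probe sets, Sln being the exception, where it was the brightest for 29.1% of all probe sets. KO replicate 2 also had the highest array median of the deposited intensities (71.1). With each array centred on its median, 4 of the 7 were brightest there, against 24.1% of all probe sets. With quantile normalization the count was 6 of 7, against 26.3% of all probe sets. On KO replicate 2 the members stood above their own 4-array mean by 0.02 for Ryr1, 0.05 for Hrc, 0.16 for Casq1, 0.16 for Sln, 0.24 for Casq2 and 0.34 and 0.51 for the probe sets of Ryr3, on the log2 scale.

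The samples mix soleus with gastrocnemius, and transcripts of slow-fibre genes differed between pools. Myh7, the myosin of slow fibres, read 1968 and 3666 on the WT arrays and 3452 and 2872 on the KO arrays. The slow-fibre pump Atp2a2 followed the same order of high and low WT arrays, with 576 and 907 on the WT arrays and 890 and 624 on the KO arrays. Its values and those of Myh7, each centred on its 4-array mean, lay 0.31 apart (Euclidean distance over the 4 arrays on the log2 scale). Casq2 and Sln did not lie as close to Myh7, at distances of 0.82 and 0.80. In KO, Casq2 was higher on replicate 2 (89.7 against 60.4), whereas Myh7 and Atp2a2 were higher on replicate 1. Such distances over 4 arrays are descriptions with no test, and dim probe sets add their own scatter.

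Casq1 lay close to fast-fibre genes. Its distance was 0.06 from Atp2a1, the fast-fibre pump, 0.10 from Pvalb, the calcium buffer of fast fibres, and 0.74 from Myh7. Every member probe set lay nearer to Atp2a1 than to Myh7, with distances from Atp2a1 of 0.15 for Ryr1, 0.14 for Hrc, 0.21 for Casq2 and 0.31 for Sln. Atp2a1 varied less over the arrays than Myh7, so any probe set that varied little lay nearer to it. These distances therefore do not sort the members by fibre type. Atp2a1 read 20035 and 19318 on the WT arrays and 18828 and 21895 on the KO arrays, and Pvalb 20966 and 19711 on the WT arrays and 19328 and 24527 on the KO arrays, so that both were, like Casq1, lowest on KO replicate 1 and highest on KO replicate 2. The other probe set of Pvalb, at 7222 and 7383 on the WT arrays and 7249 and 6619 on the KO arrays, was lowest on KO replicate 2. Of 10 fast-fibre contractile genes, 6 were brightest on KO replicate 2 and 0 passed the test (5 higher and 5 lower in KO, median log2 fold change -0.02). Of 7 measured slow-fibre contractile genes, 6 were brightest on WT replicate 2 and 0 passed (6 higher and 1 lower in KO, median 0.12). Without WT replicate 1 all 7 slow-fibre genes were lower in KO (median -0.28), and without WT replicate 2 all 7 were higher (median 0.65). Leaving out KO replicate 1 moved the fast-fibre median to 0.09, and leaving out KO replicate 2 moved it to -0.08. In whole muscle, fewer fibres of a type and less RNA per fibre cannot be told apart.

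**Figure D4:**
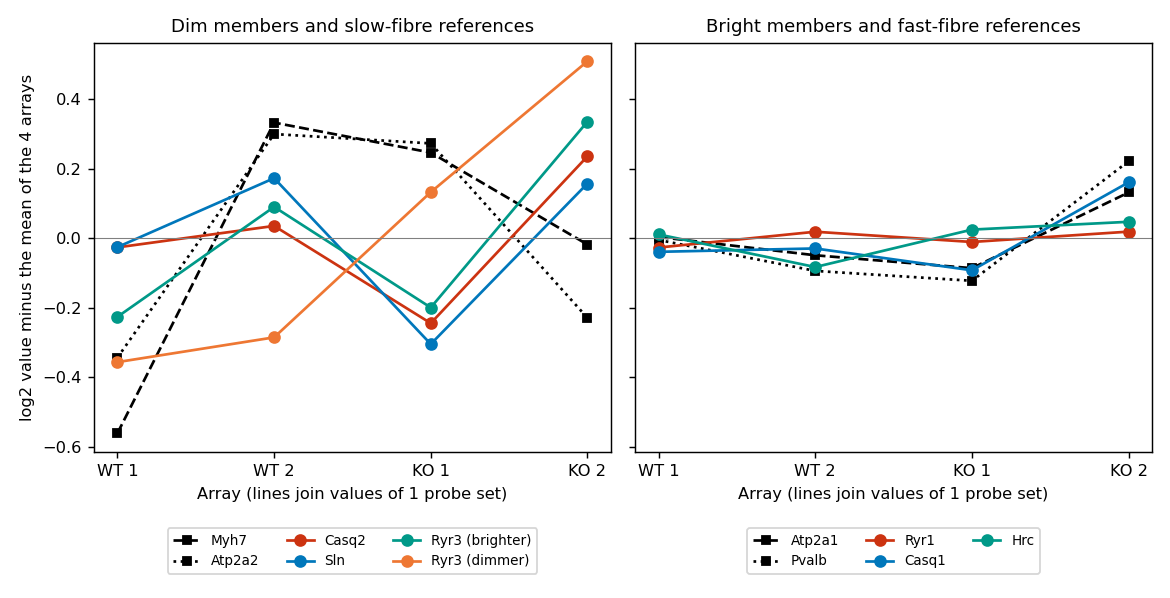
Log2(intensity + 14) minus the mean of the 4 arrays for the dim members beside the slow-fibre references Myh7 and Atp2a2 (left) and for the bright members beside the fast-fibre references Atp2a1 and Pvalb (right); lines join the 4 values of 1 probe set and show no order of time. Casq1 runs beside Atp2a1, while Casq2 and Sln are low on KO replicate 1, where Myh7 and Atp2a2 are high.

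Among the members, the smallest distance was that of Ryr1 and Hrc (0.12), followed by Casq2 with Sln (0.17) and Ryr1 with Casq1 (0.17). Ryr1 and Hrc varied little over the arrays (ranges 0.05 and 0.13), so their small distance does not show a shared pattern. On WT replicate 2 Ryr1 stood at 0.02 and Hrc at -0.08 from their own means. The Ryr3 probe sets lay 0.55 apart, farther from each other than the brighter one lay from Casq2 (0.23). The brighter Ryr3 probe set had the widest range (0.56) among members above the median probe set. Out of 5611 named probe sets above that median and outside the members, the genes nearest to it over the 4 arrays were Tmbim1 (distance 0.03), the phosphate transporter Slc20a1 (0.04), the muscle chloride channel Clcn1 (0.05), the peroxisomal protein Pex14 (0.06) and Mpdu1 (0.07). The median distance over these probe sets was 0.56. Clcn1, for example, read 591 and 764 on the WT arrays and 602 and 860.0 on the KO arrays. With 5611 candidates and 4 values each, small distances can arise without a shared pattern. Whether these genes vary together with Ryr3 was not tested.

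On the membrane side no partner of the members passed the test. The voltage sensor Cacna1s read 2656 and 3023 on the WT arrays and 2878 and 2924 on the KO arrays (log2 fold change 0.03 ± 0.11, limma adjusted p = 0.977). Of 8 measured genes of membrane and triad coupling (13 listed), 4 were higher and 4 lower in KO and 0 passed the test (median log2 fold change 0.01). Between genotypes 4 of the 8 did not overlap, against 34.6% of all probe sets, and so small a count does not set the list apart. Cav3, the muscle caveolin, read 778 and 789 on the WT arrays and 629 and 593 on the KO arrays, with both KO arrays below both WT arrays. Its log2 fold change was -0.35 ± 0.11 (limma adjusted p = 0.813), and its other probe set had -0.26 ± 0.12. Jph3, a junctophilin known from brain, was dim, at 5.39 and 20.6 on the WT arrays and 25.6 and 32.2 on the KO arrays (log2 fold change 0.72 ± 0.38, limma adjusted p = 0.908).

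The pumps showed no difference past the threshold. Of 4 measured genes of the pump list (7 listed), 2 were higher and 2 lower and 0 passed (median log2 fold change 0.02). Atp2a1 and Atp2a2 had log2 fold changes of 0.05 ± 0.14 and 0.04 ± 0.25, and Tmem38b, a potassium channel of the reticulum, had -0.12 ± 0.13. The other probe set of Atp2a1 read 15553 and 15582 on the WT arrays and 15647 and 17683 on the KO arrays.

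Among 10 measured release channel partners and other release channels (16 listed), 5 were higher and 5 lower and 0 passed (median log2 fold change 0.01). Ryr2, the release channel of heart, was as dim as Sln, at 4.45 and 21.7 on the WT arrays and 19.3 and 14.1 on the KO arrays. Fkbp1a, which binds and stabilises the ryanodine receptor, read 974 and 986 on the WT arrays and 896 and 832 on the KO arrays (log2 fold change -0.18 ± 0.10, limma adjusted p = 0.908). The scaffold Homer2 read 54.6 and 37.1 on the WT arrays and 78.5 and 86.7 on the KO arrays (0.70 ± 0.33, limma adjusted p = 0.908).

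The luminal calcium binders of the general endoplasmic reticulum were 6 higher and 3 lower of 9 measured, 0 of them past the test (median log2 fold change 0.04). Pdia3, a disulfide isomerase that works with calreticulin and calnexin, read 128 and 115 on the WT arrays and 193 and 163 on the KO arrays (0.50 ± 0.20, limma adjusted p = 0.908). Calnexin (Canx) read 113 and 185 on the WT arrays and 164 and 199 on the KO arrays, with overlap (0.29 ± 0.27), and its other, dimmer probe set had 0.58 ± 0.33.

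Of 5 measured genes of cytosolic buffering, export and entry (11 listed), 3 were higher and 2 lower and 0 passed (median log2 fold change 0.10). The sodium-calcium exchanger Slc8a1 read 168 and 178 on the WT arrays and 118 and 119 on the KO arrays (-0.50 ± 0.19, limma adjusted p = 0.883), with no overlap. Its other probe sets, both dim, had -0.63 ± 0.37 and 0.55 ± 0.41, so the direction differed between them. The plasma membrane pump Atp2b2 read 86.8 and 24.3 on the WT arrays and 13.9 and 18.0 on the KO arrays (-1.06 ± 0.52, limma adjusted p = 0.908).

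Calcium-dependent kinases, calcineurin and their regulators were 3 higher and 6 lower of 9 measured (12 listed), their median log2 fold change being -0.14, and 0 passed the test. The calcineurin catalytic subunits Ppp3ca and Ppp3cb had WT means of 742 ± 24.8 and 548 ± 46.4 and KO means of 620 ± 28.0 and 459 ± 35.7 (SD, n = 2). Their log2 fold changes were -0.25 ± 0.11 and -0.25 ± 0.13 (limma adjusted p = 0.908 for both). The other catalytic subunit, Ppp3cc, chosen after its values were seen, read 118 and 145 on the WT arrays and 177 and 158 on the KO arrays, a difference of the opposite sign with no overlap (0.32 ± 0.21, limma adjusted p = 0.908). Over the 6 lists, 45 of 68 genes were measured, 23 higher and 22 lower in KO, with a median log2 fold change of 0.004. In these lists 16 of 45 did not overlap between genotypes, against the 34.6% of all probe sets. An unadjusted p under 0.05 (limma) was found for 3 of the 45 (Cav3, Pdia3 and Slc8a1), against 5.43% of all probe sets. So small a count does not set these genes apart. The median of each of the 6 lists turned sign with at least 1 array left out; that of the kinase and calcineurin list was 0.02 without KO replicate 1.

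**Figure D5:**
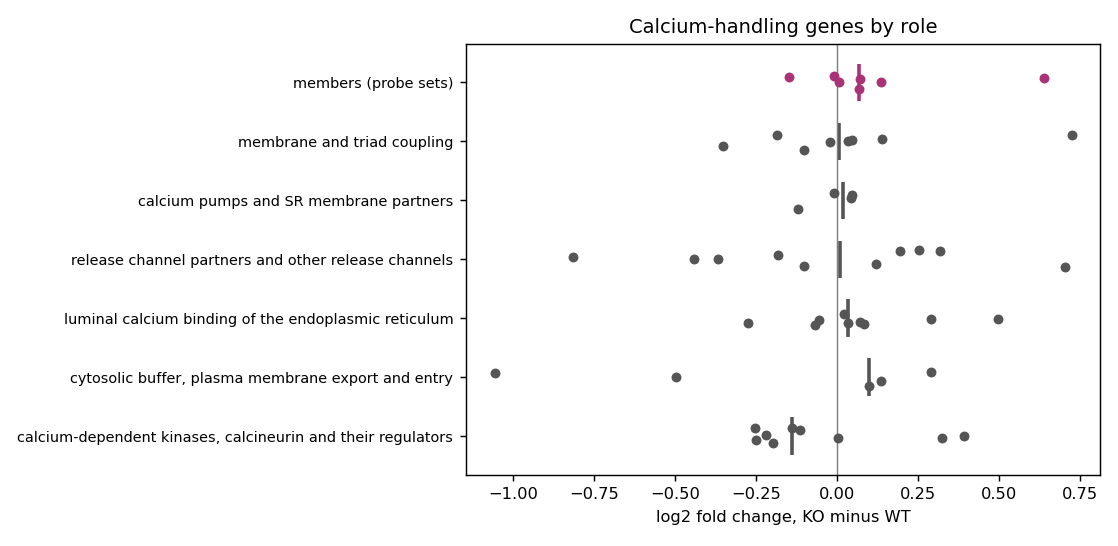
Log2 fold change (KO minus WT) of the 7 member probe sets (purple) and of the measured genes of 6 calcium-handling lists (grey, 1 point per gene, vertical jitter only for legibility); the vertical bars are medians. The medians lie between -0.14 and 0.10, and points spread to both sides of 0 in each list.

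The samples carried the markers of skeletal muscle: all 10 such genes were measured, with a summed intensity of 95663 and 94182 on the WT arrays and 90379 and 97990.0 on the KO arrays, 3 higher and 7 lower in KO and 0 past the test (median log2 fold change -0.07). Markers of heart, where Casq2 and Hrc are also expressed, summed to 468 and 556 on the WT arrays and 309 and 527 on the KO arrays over 8 genes (median -0.10, 0 passed). The lowest sum fell on KO replicate 1, as did the lowest value of Casq2. This was not particular to heart, since the sums of the skeletal and smooth muscle markers were also lowest on that array. The heart markers did not move together: 3 were higher and 5 lower in KO, and 2 of the 8 stood above the median probe set. Tnni3, chosen after its values were seen, read 8.53 and 9.64 on the WT arrays and 51.3 and 43.4 on the KO arrays, highest on KO replicate 1. The part of heart tissue in the Casq2 signal was not tested. Smooth muscle markers summed to 2282 and 2003 on the WT arrays and 1994 and 2225 on the KO arrays over 7 genes (median -0.05, 0 passed). Pancreatic acinar markers were brightest on KO replicate 1 in 9 of 9 cases (median log2 fold change 2.14), against 21.8% of all probe sets. All 9 had both KO arrays above both WT arrays, against 17% of all probe sets. Liver markers were brightest on WT replicate 2 in 6 of 8 cases (median -1.01), against 25.5% of all probe sets. All 8 were lower in KO, 6 of them with no overlap, where 34.6% of all probe sets did not overlap. In both lists 0 genes passed the test, and the bearing of such signal on the members was not tested. Crhr2 itself read 154 and 192 on the WT arrays and 100.4 and 75.1 on the KO arrays on its brighter probe set, a KO mean of 50.7% of WT (log2 fold change -0.88 ± 0.25, limma adjusted p = 0.803). Its dimmer probe set read 18.8 and 45.3 on the WT arrays and 36.7 and 22.7 on the KO arrays, with overlap (-0.03 ± 0.43). Where the probe sets lie relative to the deleted part was not known here, which limits them as a check of the labels.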

How the data were processed

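Total RNA of gastrocnemius and soleus was pooled from 2 mice per array and biotin-labelled, per the labels' protocols. The values deposited by the authors are signal intensities on a linear scale; how they were summarised from the probes and corrected for background, and on which genome build, is not stated in the labels. Array medians of the deposited intensities were 67.6 to 71.1, so no further scaling was applied. After removal of 66 Affymetrix controls from 12488 probe sets, log2(intensity + 14), the pseudocount being 20% of the median, was fitted on genotype with limma 3.58.1 in R 4.3.3 (eBayes with intensity trend, two-sided, Benjamini-Hochberg adjustment over 12422 probe sets, threshold 0.05). Interval bounds were converted to signal by applying them to the fitted WT level and subtracting the pseudocount. Titles gave the groups, since the genotype and tissue fields of the labels are swapped. The number of arrays limits the precision.

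Gene names came from the platform annotation (2016), for probe sets with 1 symbol (10833; 396 had several and 1193 none), updated through Entrez identifiers. For list genes the probe set with the highest mean was used. The members and the lists (6 of calcium handling, 2 of fibre type, 5 of cell type markers) were chosen with earlier results of these data known. Genes named were all members, Crhr2, the partners Atp2a1, Atp2a2, Cacna1s, Ryr2, Pvalb and Myh7, the 2 genes of each calcium list with the smallest p, and the 5 genes nearest in profile. Ppp3cc and Tnni3 were added outside this rule, after their values were seen. Alternatives tried were other pseudocounts, a filter on dim probe sets, median centring, quantile normalization, no intensity trend, a replicate block and leaving out each array.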

Additional observations from a re-analysis of the deposited data

How the results depend on the processing

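The count of probe sets past the threshold was 0 under all 11 alternatives (limma). Of 75 recomputed fold changes of single member probe sets, 66 kept their sign and 9 did not, and none passed. The count of 66 overstates stability. The filter on dim probe sets, the fit without the intensity trend and the replicate block leave the fold change itself unchanged, so no sign could turn there. Apart from Ryr1 with median centring, every change of sign came with an array left out. With median centring Ryr1 turned to -0.0027. With 1 array left out, the log2 fold change ranged from -0.015 to 0.031 for Ryr1, from -0.13 to 0.40 for the brighter Ryr3 probe set, from -0.058 to 0.19 for Casq1, from -0.25 to 0.23 for Casq2 and from -0.38 to 0.084 for Sln, all turning sign. The dimmer Ryr3 probe set (0.45 to 0.83) and Hrc (0.03 to 0.12) kept theirs. From 0 to 5 of the 7 probe sets were then lower and from 2 to 7 higher in KO. Without the intensity trend the dimmer Ryr3 probe set had an unadjusted p = 0.0331 (limma adjusted p = 0.775). Among probe sets above the median only, 5 members were tested and 1 was lower.

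Pools of different genotype share replicate numbers, but over all probe sets same-numbered pools did not deviate together (correlation 0.003). Among the members, replicate 2 was above replicate 1 in both genotypes for 6 of 7 probe sets, against 3651 of 12422 probe sets tested. With the replicate number as a block, 0 probe sets passed, with a smallest limma adjusted p = 0.255 against 0.803 without it. As none had passed without the block either, the count cannot show whether a pairing matters. Dim signals, at or below the median of all probe sets for Sln and the dimmer Ryr3 probe set, limit what can be said of those genes.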
